A study of Mus musculus with 8 samples.

Results

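Cholesterol homeostasis genes were followed in whole livers of neonatal CD1 mice by RNA sequencing. The 34 genes cover the SREBP2 regulators (4), the enzymes of cholesterol synthesis (18), sterol uptake, intracellular transport and storage (7), and sterol efflux (5). They were chosen by symbol from the 48440 genes of the count table, and all 34 passed the filter on low counts, as did 18274 genes in all. The tested livers were those of 4 pups whose germline lacks Myo5b (animals 275, 276, 277 and 278), and the comparison livers from 4 littermates that carried 1 or no deleted allele and are labelled heterozygous/wildtype (animals 279, 280, 281 and 282). All pups were 3 to 8 days old. The labels pool heterozygous and wildtype pups into 1 control group and give no age, sex or litter for any single pup, so differences in age or litter cannot be told apart from other differences between the livers. Sex can be read from Y-linked transcripts: Ddx3y was at 120.0 CPM in knockout 277 and at 117 and 116 CPM in controls 279 and 281, and at 0 to 0.067 CPM in the other 5 livers. A Y-linked covariate, which raised the variance of the genotype estimate 1.06-fold, kept 15 of the 17 calls described below. Myo5b encodes myosin Vb, a motor that moves recycling endosomes to the apical membrane.

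Cells sense cholesterol in the membrane of the endoplasmic reticulum. When it is scarce, SCAP escorts the transcription factor SREBP2 to the Golgi, where it is cut and released to switch on the genes of synthesis and of lipoprotein uptake; when it is plentiful, the INSIG proteins hold SCAP back. Oxysterols made from surplus cholesterol activate the liver X receptors, which switch on efflux transporters. In the liver, cholesterol leaves as high-density lipoprotein through ABCA1, into bile through the ABCG5/ABCG8 pair, or as bile acids.

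Library totals ran from 14228268 to 18398039 counts, and the 34 genes had between 87 counts (Mvd in a single control liver) and 10909 (Abca1). Values are counts per TMM-scaled library, in the usual CPM unit, and a gene was called where its adjusted p in edgeR's quasi-likelihood test, corrected over all genes tested, was under 0.05. Myo5b averaged 49.3 ± 7.06 CPM in knockout livers and 133 ± 33.1 CPM in controls (SD, n = 4 each), a log2 fold change of -1.43 (SE 0.18). Over the whole table, 1694 genes rose and 2088 fell in the knockouts, or 20.7% called (2300 and 1696 with library size as the only scaling). All 8 hepatocyte markers were detected; 2 were lower, Alb (-1.08, SE 0.11) and Ttr (-0.97, SE 0.10), 6 were not called, and the median log2 fold change of the 8 was 0.05. Erythroid, proliferation, macrophage and endothelial markers differed between the groups. All 14 erythroid markers in the table and all 10 proliferation genes were lower in knockout livers. By contrast, 11 of 13 Kupffer cell and macrophage markers and 8 of 9 endothelial markers were higher. Other lists were mixed or changed less: of 9 stellate markers 2 were higher and 2 lower, and 3 of 6 megakaryocyte markers were lower. Of 8 neutrophil markers 1 was lower, and none of the 6 cholangiocyte markers tested was called. In whole tissue, fewer cells of a type and less RNA per cell cannot be told apart. With the mean of the erythroid or of the macrophage markers as a covariate, 0 of the 34 genes were called by edgeR (5 and 2 at an unadjusted p under 0.05, against 21 without a covariate), and Insig2, Mvd and Abca1 turned sign with the macrophage covariate. Adding them raised the genotype term's variance 9.31-fold and 20.4-fold. The median SE of the 34 genes was 0.311 and 0.481 with the covariates, against 0.107 without, and the genotype cannot be told apart from these cell markers.

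Cholesterol genes changed in both directions in the knockout livers and by less than 2-fold. Of the 34 genes, 8 were higher and 9 lower, or 50% called against 20.7% of all genes (higher 23.5% against 9.27%, lower 26.5% against 11.4%). The genes tested include some at far lower counts than these 34, and the shares were not matched for count. With a filter of 1 CPM in 4 libraries, 22.9% of all genes were called. The 34 genes were also chosen with earlier results of these data known. The median log2 fold change of the 34 was 0.04, against 0.01 over all genes tested. The ranges of the 2 groups did not overlap for 14 of the 34 genes, 5 with every knockout above every control and 9 with every knockout below; over all genes tested 23.6% did not overlap (10.8% above and 12.8% below). By role, 6 of the 18 synthesis enzymes and 3 of the 5 efflux genes were lower, whereas 4 of the 7 genes of uptake, transport and storage were higher and none of these 7 was lower. The 4 higher ones were Npc1, Npc2, Soat1 and Mylip, of which Mylip degrades lipoprotein receptors. The lipoprotein receptor gene of this role, Scarb1, was not called. The 17 genes that were not called had log2 fold changes between -0.31 (Soat2) and 0.27 (Hsd17b7).

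**Figure D1:**
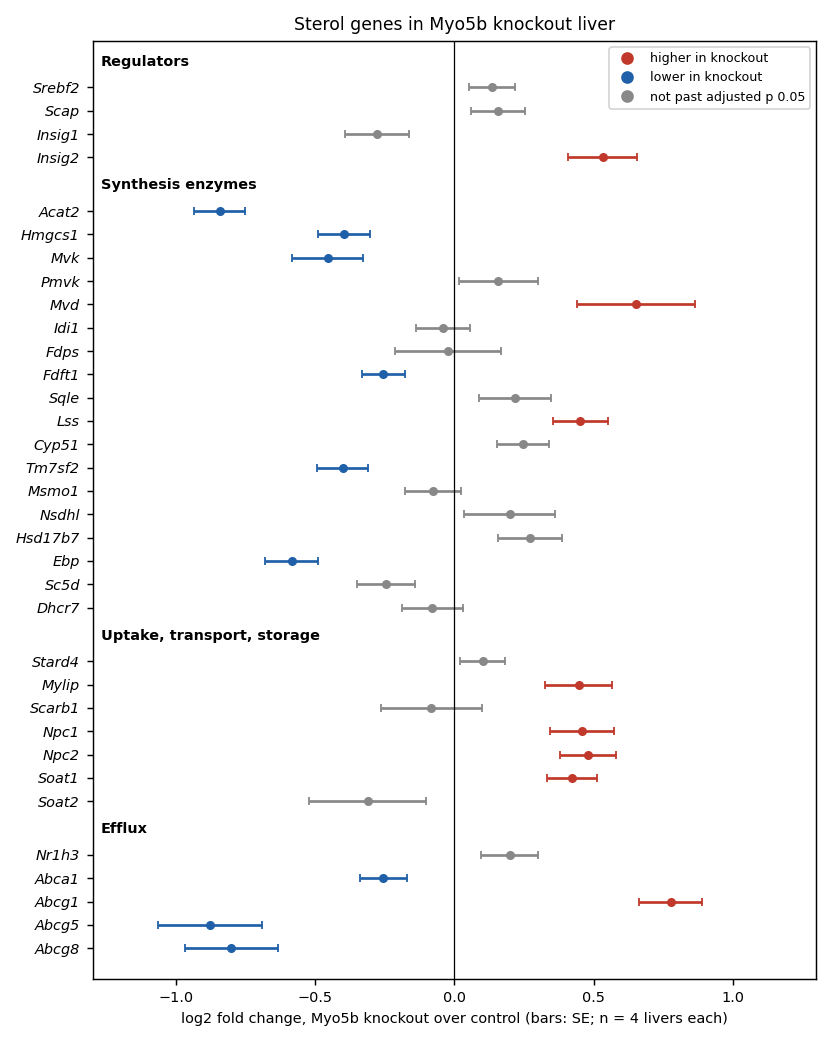
Log2 fold change of each cholesterol gene, Myo5b knockout over control (points; bars are SE; n = 4 livers in each group), grouped by role. Points right of 0 are higher in knockout livers; coloured points passed an adjusted p of 0.05. Called genes lie between -0.88 (Abcg5) and 0.78 (Abcg1).

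The SREBP2 regulators shifted little, apart from Insig2. Srebf2, which encodes SREBP2 itself, had 106, 109.5, 116 and 97.1 CPM in knockout livers and 102, 97.8, 93.9 and 97.2 CPM in controls. The estimated log2 fold change was 0.13 (SE 0.08; 2 SE on either side reach from -0.03 to 0.30), with an adjusted p of 0.272 in edgeR. Scap, the sterol-sensing escort, was likewise not called (0.16, SE 0.10, adjusted p = 0.291).

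The 2 INSIG genes had fold changes of opposite sign. Insig2 (chromosome 1, 121304353 to 121332589 on GRCm38), whose liver transcript is known in mice to be repressed by insulin, had 92.2, 116, 80.6 and 103 CPM in knockouts, against 66.3, 68.4, 80.9 and 55.2 CPM in controls. Only knockout 277 and control 281 met, at nearly equal values, and the rise was 1.45-fold (log2 fold change 0.53, SE 0.12, adjusted p = 0.00637). Insig1, itself a classical SREBP target, had 79.3, 96.2, 74.2 and 87.8 CPM in knockout livers and 102, 126, 95.6 and 85.7 CPM in controls. Its log2 fold change of -0.28 (SE 0.11) did not pass (adjusted p = 0.0993), and it passed without control 282 (-0.36, adjusted p = 0.0416) and with no low-count filter. Per length of exon, Insig2 and Insig1 stood at 28.2 ± 4.33 and 27.3 ± 3.13 RPKM (CPM per kilobase) in knockout livers, and at 19.5 ± 3.03 and 33.1 ± 5.48 RPKM in controls (SD, n = 4).

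Among the enzymes of synthesis, 6 were lower and 2 higher in knockout livers, and 10 were not called (44.4% called against 20.7% of all genes; median log2 fold change -0.06). The falls included the start of the pathway. Acat2, the cytosolic thiolase that joins acetyl-CoA units, fell to 50.003, 54.6, 49.3 and 47.3 CPM in knockouts, against 93.8, 99.4, 89.0 and 78.8 CPM in controls. The groups were far apart, and Acat2 had the largest fall among the enzymes (log2 fold change -0.84, SE 0.09, adjusted p = 7.5e-06). Acat2 lies on chromosome 17 (12942890 to 12960747) beside its near copy Acat3, with which it shares 39.1% of its 50-base transcript words, so the counts of these 2 genes may be mixed. Acat3 had 46.6 ± 4.60 CPM in knockouts, against 114 ± 14.4 CPM in controls (SD, n = 4) and was lower as well (-1.29, SE 0.10).

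Hmgcs1, the cytosolic HMG-CoA synthase, had 305, 398, 373 and 344 CPM in knockout livers and 506, 480.5, 456 and 425 CPM in controls. Every knockout lay below every control, with a log2 fold change of -0.40 (SE 0.09, adjusted p = 0.0057 in edgeR). It stood highest of the 34 genes per length, at 77.3 ± 8.68 RPKM in knockout and 102 ± 7.50 RPKM in control livers. Mvk, mevalonate kinase, had 15.2, 18.4, 21.01 and 19.7 CPM in knockout livers and 23.2, 27.6, 25.7 and 25.3 CPM in controls. The ranges were apart (-0.46, SE 0.13, adjusted p = 0.0174), but the call was lost without knockout 275 (-0.37) or control 280 (-0.42).

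The later steps of the isoprenoid stretch did not move as a block. Pmvk, phosphomevalonate kinase, was 27.9 ± 5.62 CPM in knockout livers and 25.0 ± 1.74 CPM in controls, and was not called (adjusted p = 0.484). Mvd, which decarboxylates mevalonate diphosphate, was higher, at 12.2, 18.2, 11.7 and 10.7 CPM in knockout livers and 5.65, 10.7, 9.02 and 8.20 CPM in controls. It is the member with the lowest single count, its highest control met its lowest knockout, and its call (log2 fold change 0.65, SE 0.21, adjusted p = 0.038) was lost when any of 6 libraries was left out: knockout 275 (0.69), 276 (0.45) or 277 (0.70), or control 279 (0.50), 281 (0.69) or 282 (0.64). The Y-linked covariate also ended that call.

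Idi1, the isomerase of the isoprenoid unit, and Fdps, farnesyl diphosphate synthase, were close to 0 (log2 fold changes -0.04 and -0.02, with adjusted p of 0.82 and 0.951). Idi1 lay between 61.95 and 72.2 CPM in knockouts and between 58.3 and 74.5 CPM in controls. Idi1 shares 17.7% of its 50-base words with other genes, the closest being Gm13502 on chromosome 2. Fdps shares 26.2% of its words with other genes, mostly (23.4%) with Gm43738. Gm43738 overlaps Fdps exons on the same strand and was itself at 0 to 0.28 CPM. The counts of Idi1 and Fdps are therefore uncertain. The low 2.12 ± 0.378 RPKM of Fdps in knockout livers and 2.16 ± 0.361 RPKM in controls are to be read with that in mind. Fdft1, squalene synthase, had 100.5, 101, 102 and 115 CPM in knockout livers and 121, 129, 125 and 125 CPM in controls. Its fall was small (-0.26, SE 0.08, adjusted p = 0.0277), and the call was lost without knockout 275 (-0.24), 276 (-0.24) or 277 (-0.25), or without control 280 (-0.24), 281 (-0.26) or 282 (-0.26), with library size as the only scaling and with no low-count filter. Fdft1 also overlaps Ctsb on the other strand, which was lower by a like amount (-0.26, SE 0.09), and the strand setting of the counting is not given.

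After squalene the changes also went both ways. Sqle, the squalene epoxidase and a rate-limiting enzyme, had 57.5, 77.1, 81.1 and 96.4 CPM in knockouts, against 71.3, 64.6, 73.0 and 59.4 CPM in controls. Knockout 275 lay below all controls and the other 3 knockouts above all of them; the gene was not called (0.22, SE 0.13, adjusted p = 0.274), and was called without knockout 275 (0.34, adjusted p = 0.0435). Lss, which folds the epoxide into lanosterol (chromosome 10, 76531588 to 76557138), had 107, 107, 101 and 95.5 CPM in knockout livers and 76.3, 86.2, 76.9 and 61.1 CPM in controls. All knockouts were above all controls, a 1.37-fold rise (log2 fold change 0.45, SE 0.10, adjusted p = 0.00345 in edgeR). Lss shares 381 exon bases with an antisense gene on the other strand, so without a known strand setting some reads may be mixed.

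Cyp51, the lanosterol demethylase, averaged 154 ± 17.96 CPM in knockout livers and 129.97 ± 10.8 CPM in controls and missed the threshold (0.25, SE 0.09, adjusted p = 0.0732). It was called without knockout 278 (0.29) or control 280 (0.30), and by upper-quartile or library-size scaling; the gene shares exon bases with Akap9 on the other strand, which was higher (0.51, SE 0.08). Tm7sf2, a sterol C14 reductase, fell to 45.4, 44.8, 43.1 and 47.0 CPM in knockouts, against 54.4, 64.4, 63.3 and 56.1 CPM in controls (-0.40, SE 0.09, adjusted p = 0.00433); it overlaps Vps51 on the same strand, with which it shares 9.87% of its 50-base words. Ebp, the sterol isomerase named for binding emopamil and encoded on the X chromosome (8185329 to 8193512), fell to 39.9, 38.7, 41.6 and 41.1 CPM in knockouts, against 60.9, 69.8, 56.4 and 55.0 CPM in controls. The 4 knockout values lay within a narrow band well below the controls (log2 fold change -0.59, SE 0.10, adjusted p = 3.36e-04).

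The remaining 5 enzymes, which demethylate, reduce and desaturate the ring, were not called. Msmo1 (-0.08), Nsdhl (0.20), Hsd17b7 (0.27), Sc5d (-0.25) and Dhcr7 (-0.08) had adjusted p from 0.106 to 0.67, and for each of them the groups overlapped. Nsdhl, for example, lay between 19.5 and 37.02 CPM in knockouts and between 22.1 and 27.2 CPM in controls, and Sc5d between 134 and 177 CPM in knockouts and between 151 and 207 CPM in controls. Hsd17b7 was called without knockout 278 (0.37) and with library size as the only scaling (0.34), and Sc5d without knockout 276 (-0.34) or control 282 (-0.32). Split by position, an order set by the textbook pathway but looked at after the values were known, the 8 enzymes up to squalene had 4 lower and 1 higher (median -0.15), and the 10 after it had 2 lower and 1 higher (median 0.06).

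**Figure D2:**
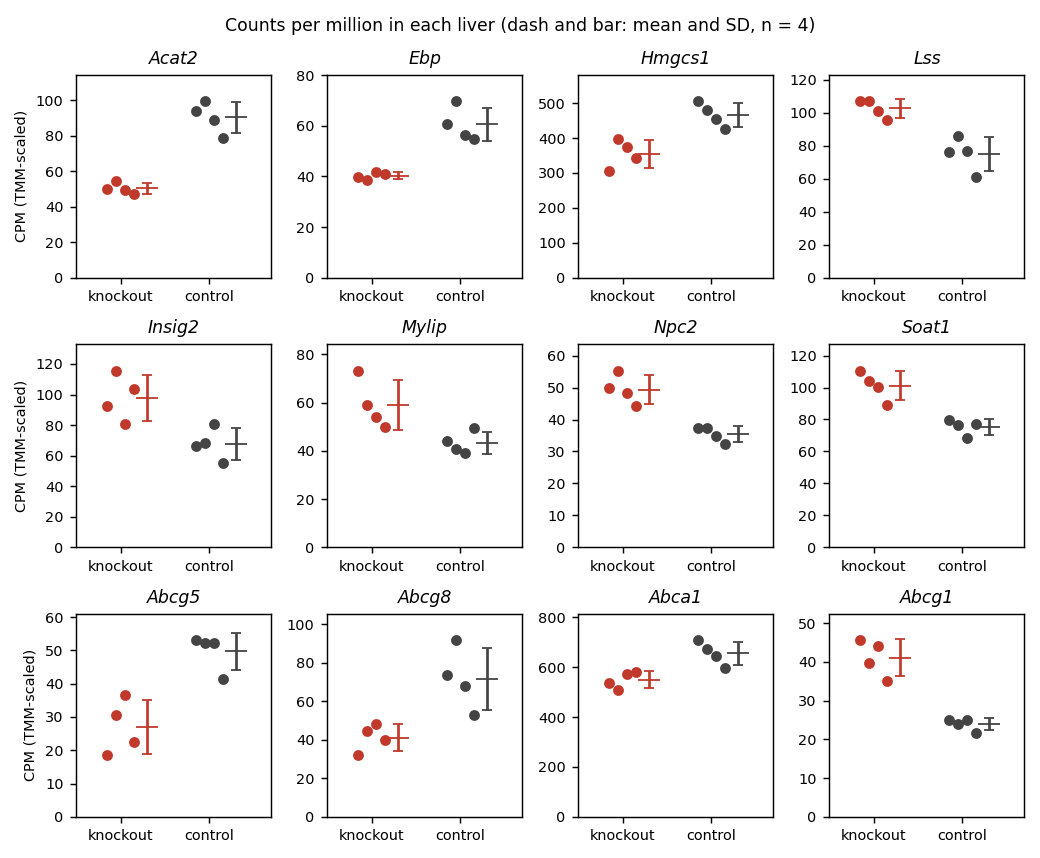
CPM of 12 cholesterol genes in each liver (vertical axes start at 0; points are livers, dash and bar the mean and SD of n = 4), with Myo5b knockout livers left of controls. Acat2, Ebp, Hmgcs1, Abcg5, Abcg8 and Abca1 have all 4 knockout livers below all 4 controls, Lss, Mylip, Npc2, Soat1 and Abcg1 have them above, and Insig2 overlaps at 80.6 and 80.9 CPM.

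Promoter windows bear on whether the enzymes that fell and those that rose differ in 2 known SREBP2-related motifs. RefSeq windows on GRCm38.p6, from 250 bases before to 50 after each start site, were at hand for 26 of the 34 genes (not for Fdps, Fdft1, Sqle, Stard4, Scarb1, Npc1, Soat2 and Abcg1). The letters TCACNCCAC, a core of the sterol regulatory element, were searched on both strands and found in 1 gene's window, that of Hmgcs1, against 1.44% of all genes with a window. This exact spelling is rare, so its absence from a window says little about a sterol regulatory element there. CCAAT, the NF-Y motif that often accompanies that element, was found in 22 of the 26 genes (84.6%), against 41.1% of all genes. By window, since a gene can have several, the shares were 64.7% and 37.4%. The shares over all genes were not limited to genes that passed the count filter, as all 26 did. CCAAT was present in 4 of the 5 lower enzymes with a window, in both higher ones and in all 8 of those not called. The DR4 repeat of the liver X receptor, as spelled here, is in 0.0148% of all genes, too few for its absence from the 26 to say anything. Shown are the enzyme with the single sterol regulatory match (Hmgcs1, lower), a higher enzyme (Lss) and the enzyme with the largest fall (Acat2, which holds neither motif); capitals mark the motif letters, with ATTGG being CCAAT read on the reverse strand.
Hmgcs1 chr13:119690101-119690400, plus strand: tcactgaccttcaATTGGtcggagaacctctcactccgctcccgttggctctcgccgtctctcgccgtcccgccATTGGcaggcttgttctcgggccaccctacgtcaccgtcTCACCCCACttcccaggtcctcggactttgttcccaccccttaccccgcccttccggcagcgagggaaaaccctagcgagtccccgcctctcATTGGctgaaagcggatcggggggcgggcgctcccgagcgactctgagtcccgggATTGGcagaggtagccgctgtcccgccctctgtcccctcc
Lss chr10:76531355-76531654, plus strand: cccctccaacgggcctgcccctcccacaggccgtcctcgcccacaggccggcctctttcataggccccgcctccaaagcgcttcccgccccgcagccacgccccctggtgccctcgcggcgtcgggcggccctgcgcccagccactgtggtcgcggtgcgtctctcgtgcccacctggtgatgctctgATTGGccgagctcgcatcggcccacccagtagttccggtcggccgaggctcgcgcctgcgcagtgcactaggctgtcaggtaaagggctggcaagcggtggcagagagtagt
Acat2 chr17:12960676-12960975, minus strand: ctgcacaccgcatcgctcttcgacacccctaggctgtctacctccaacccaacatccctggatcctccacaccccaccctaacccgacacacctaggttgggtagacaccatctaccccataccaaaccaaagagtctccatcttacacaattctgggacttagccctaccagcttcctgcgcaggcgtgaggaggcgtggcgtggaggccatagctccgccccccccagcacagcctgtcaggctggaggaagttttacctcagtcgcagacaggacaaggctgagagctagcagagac
In Hmgcs1 the sterol regulatory match runs from 137 to 129 bases before the start site, between CCAAT letters on the reverse strand that begin 176 and 45 bases before it. The Lss window has 1 CCAAT, on the reverse strand. A match describes letters, and says nothing of whether a factor was bound in these livers.

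Efflux genes were the role with the largest share of calls, 3 lower and 1 higher among 5 (80% against 20.7% of all genes; median log2 fold change -0.26). The transcripts for both subunits of the canalicular sterol pump fell, and protein was not measured here. Abcg5 (chromosome 17, 84658234 to 84683011) had 18.6, 30.5, 36.7 and 22.5 CPM in knockout livers and 53.1, 52.2, 52.4 and 41.4 CPM in controls. Abcg8 (84676302 to 84700333 on the opposite strand) had 31.9, 44.5, 48.0 and 39.7 CPM in knockout livers and 73.9, 91.8, 67.7 and 52.8 CPM in controls. For both, every knockout lay below every control, and the order of the knockout livers was the same, with 275 lowest, then 278, 276 and 277.

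The falls were 1.84-fold for Abcg5 (log2 fold change -0.88, SE 0.19, adjusted p = 0.00572) and 1.74-fold for Abcg8 (-0.80, SE 0.17, adjusted p = 0.00543). Leaving out any single liver kept both calls, with log2 fold changes of -1.07 to -0.73 for Abcg5 and -0.92 to -0.66 for Abcg8. Their exons overlap on opposite strands, so without a known strand setting some reads of one could count for the other. ABCG5 and ABCG8 work as an obligate pair, and their genes lie head to head; the window of Abcg8 holds both RefSeq start sites, with 109 bases between them, shown in capitals.
Abcg8 and Abcg5 chr17:84682871-84683170, plus strand: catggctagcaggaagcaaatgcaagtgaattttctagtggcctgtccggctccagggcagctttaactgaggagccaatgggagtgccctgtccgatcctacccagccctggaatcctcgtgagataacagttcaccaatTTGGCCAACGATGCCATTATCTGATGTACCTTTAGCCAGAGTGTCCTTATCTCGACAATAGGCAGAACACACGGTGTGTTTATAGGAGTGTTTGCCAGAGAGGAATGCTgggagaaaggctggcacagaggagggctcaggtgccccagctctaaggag
The start site of Abcg5 is at 84683011 on the minus strand and that of Abcg8 at 84683121 on the plus strand, so this stretch is upstream of both. CCAAT letters lie in the window beginning 175 and 114 bases before the Abcg8 start. Those at 114 bases are also the only CCAAT in the Abcg5 window, so the same site counts for both genes.

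Abca1, which loads cholesterol onto apolipoprotein A-I, was the most abundant efflux gene per length, at 53.0 ± 3.32 RPKM in knockout livers and 63.3 ± 4.49 RPKM in controls. It had 536, 507, 572 and 581 CPM in knockout livers and 708, 671, 645 and 598 CPM in controls. The ranges were apart but the fall was small (-0.26, SE 0.08, adjusted p = 0.0386), and the call was lost without knockout 275 (-0.24) or 276 (-0.22), without control 279 (-0.22), 280 (-0.25) or 281 (-0.26), with library size as the only scaling, by upper quartiles and with the Y-linked covariate. Nr1h3, the liver X receptor alpha gene, was 62.3 ± 6.74 CPM in knockout livers and 54.3 ± 6.003 CPM in controls, not called (0.20, SE 0.10, adjusted p = 0.201). The other liver X receptor gene, Nr1h2, was higher, at 64.9 ± 9.60 CPM in knockout livers and 45.2 ± 1.73 CPM in controls. Every knockout lay above every control (0.52, SE 0.10, adjusted p = 0.00159). Nr1h2 was listed with the liver X receptor partners and targets below, not with the efflux genes.

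Abcg1 (chromosome 17, 31057675 to 31117988), which passes cholesterol to high-density lipoprotein and is known for its role in macrophages, went the other way. It had 45.6, 39.6, 44.1 and 35.0 CPM in knockout livers and 25.1, 24.0, 25.1 and 21.7 CPM in controls. Every knockout was above every control, and its 1.71-fold rise was the largest among the 34 genes by log2 fold change (0.78, SE 0.11, adjusted p = 1.1e-04). The 13 Kupffer cell and macrophage markers, of which 11 were higher and none lower, summed to 1762 to 2038 CPM in knockout livers and 1016 to 1198 CPM in controls, with a median log2 fold change of 0.71; none of the 13 was at 0. The part of these cells in the Abcg1 value was not tested.

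Among the genes of uptake, transport and storage, Npc1, Npc2, Soat1 and Mylip were higher in the knockout livers (4 higher and none lower of 7, or 57.1% against 20.7% of all genes; median log2 fold change 0.42). Npc2 and Npc1 together carry cholesterol out of lysosomes. Npc2 (chromosome 12, 84754562 to 84773152) had 49.8, 55.3, 48.2 and 44.2 CPM in knockout livers and 37.3, 37.3, 34.8 and 32.2 CPM in controls. All knockouts were above all controls (1.40-fold, log2 fold change 0.48, SE 0.10, adjusted p = 0.00259). Npc1 had 117, 138, 154 and 174 CPM in knockout livers and 98.9, 110.3, 120.3 and 95.0 CPM in controls. Knockout 275 fell below control 281, and the other knockouts were above all controls (0.46, SE 0.11, adjusted p = 0.00938 in edgeR). Npc1 shares exon bases, up to 511, with 2 genes on the other strand, so here too some reads may be mixed.

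Soat1, which esterifies cholesterol in most cell types, had 111, 104, 101 and 88.8 CPM in knockout livers and 79.5, 76.5, 68.3 and 77.3 CPM in controls. It was 1.34-fold higher, with the groups apart (0.42, SE 0.09, adjusted p = 0.00259). Soat2, the form of hepatocytes and intestine, had 20.2, 25.0, 31.7 and 45.1 CPM in knockouts, against 34.7, 42.2, 37.4 and 37.1 CPM in controls. It had the widest spread of the 34 genes within the knockouts, 2.24-fold between the lowest and the highest liver, and was not called (-0.31, SE 0.21, adjusted p = 0.35). Of its knockout values, 3 lay below all controls and that of knockout 278 above all of them; without knockout 278 Soat2 was called lower (-0.56, adjusted p = 0.00826).

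Mylip, the ubiquitin ligase IDOL that degrades lipoprotein receptors and is itself a liver X receptor target, had 73.3, 58.9, 54.0 and 49.8 CPM in knockout livers and 44.3, 40.7, 38.9 and 49.4 CPM in controls. Knockout 278 and control 282 all but met, and the rise (0.45, SE 0.12, adjusted p = 0.013) lost its call without knockout 275 (0.33, adjusted p = 0.0589). Scarb1, the high-density lipoprotein receptor SR-BI, lay between 147 and 219 CPM in knockout livers and between 158 and 266 CPM in controls, and was not called (-0.08, SE 0.18, adjusted p = 0.807). Stard4, a sterol carrier and SREBP2 target, was not called either (0.10, SE 0.08, adjusted p = 0.435). Beside the rise of Npc2, Npc1 and Soat1, which many cell types express, stand the macrophage marker sums given above and the 9 endothelial markers, which summed to 1164 to 1387 CPM in knockout livers and 909 to 999 CPM in controls. Their part in these rises was not tested.

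**Figure D3:**
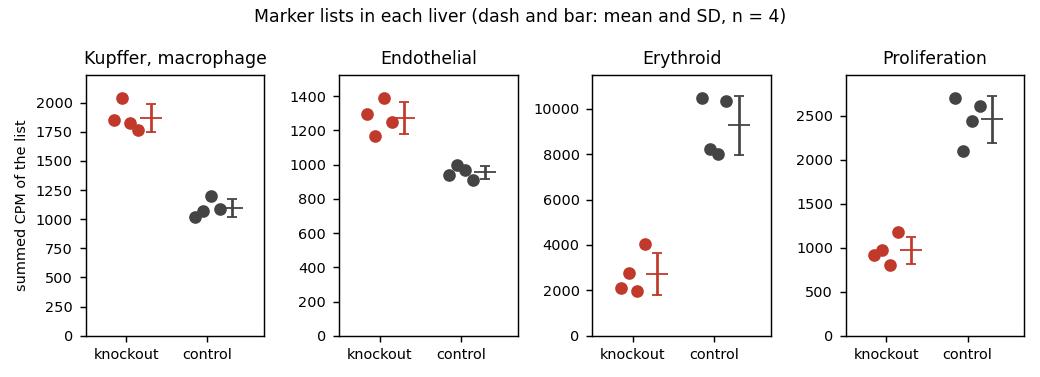
Summed CPM of the macrophage, endothelial, erythroid and proliferation marker lists in each liver, with Myo5b knockout livers left of controls. Vertical axes start at 0, and dash and bar are the mean and SD of n = 4. Macrophage and endothelial sums are higher, and erythroid sums (1974 to 4023 CPM against 8027 to 10464 CPM) and proliferation sums (805 to 1174 CPM against 2097 to 2699 CPM) lower in all knockout livers.

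Synthesis genes, and then uptake, transport and storage genes, were set against the efflux genes. The 29 genes of synthesis, regulation, uptake, transport and storage had 7 higher and 6 lower with a median log2 fold change of 0.10, and the 5 efflux genes 1 higher and 3 lower with a median of -0.26. In single livers, the mean log2 CPM of the efflux genes minus that of the 18 enzymes was 0.29, 0.23, 0.44 and 0.34 in knockouts 275 to 278, and 0.48, 0.46, 0.50 and 0.37 in controls 279 to 282. Knockout 277 lay above control 282, so the groups overlapped. The group means were 0.33 ± 0.09 in knockouts and 0.45 ± 0.06 in controls (SD, n = 4), with a difference of -0.13, a description with no test. Abcg1 and the lower efflux genes went opposite ways within it. Against the 7 genes of uptake, transport and storage, a contrast added after the values were seen, the efflux mean stood at -0.44, -0.22, -0.18 and -0.37 in knockouts 275 to 278, and at 0.04, 0.21, 0.21 and -0.06 in controls 279 to 282. Here the groups did not overlap, with means of -0.30 ± 0.12 in knockouts and 0.10 ± 0.13 in controls (SD, n = 4) and a difference of -0.40, again with no test. The macrophage and endothelial marker sums above move with this contrast too, and their part in it was not tested. Since the 7 genes include Mylip, which degrades lipoprotein receptors, their mean is not a measure of uptake. The mean log2 CPM of the enzymes alone was 5.77 ± 0.11 in knockout and 5.84 ± 0.09 in control livers.

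Within each group, some livers were repeatedly at the low or the high end for the enzymes. Among the 18 enzymes, knockout 275 had the lowest knockout value for 8 and knockout 278 for 7, while knockout 276 had the highest for 8. Among the controls, 280 had the highest value for 13 of the 18 enzymes and 282 the lowest for 9. Over all 34 genes the highest liver exceeded the lowest by a median of 1.3-fold among knockouts and 1.26-fold among controls.

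**Figure D4:**
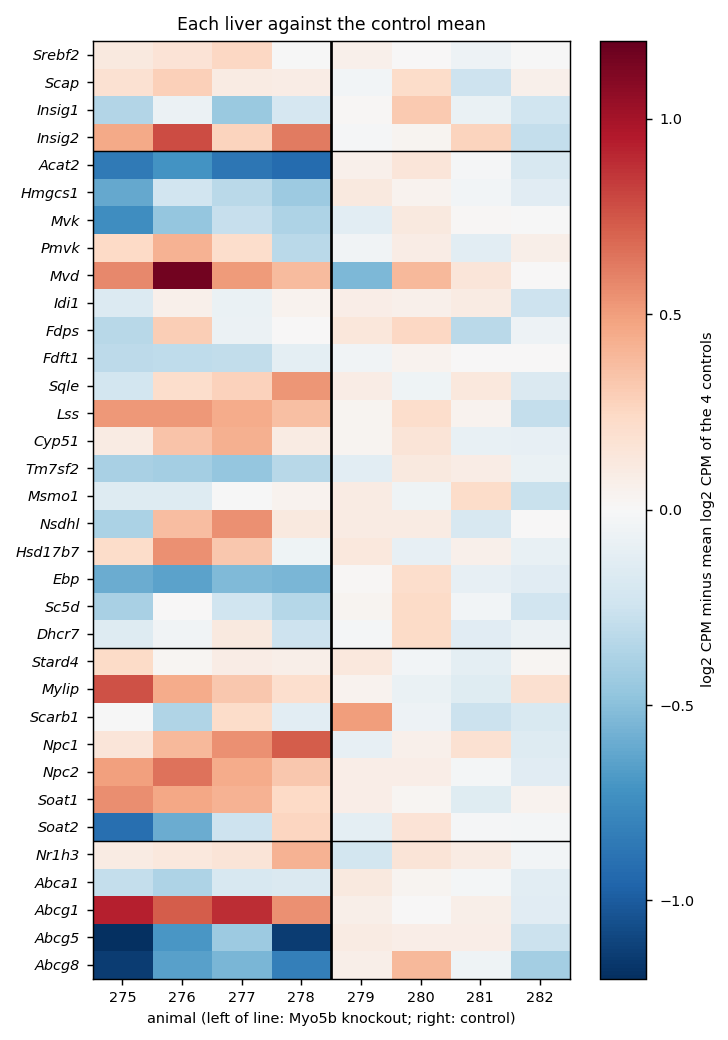
Log2 CPM of the 34 cholesterol genes in each liver minus the mean log2 CPM of the 4 controls (colour; rows are genes by role, columns animals, with Myo5b knockout livers left of the line and controls right of it). Acat2, Ebp, Abcg5 and Abcg8 are blue in all 4 knockout livers, and Abcg1, Lss, Npc2 and Soat1 red in all 4; Soat2 and Sqle differ from one knockout liver to the next.

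Other genes of sterol handling, from 8 lists by function, gave the surroundings. Of 12 liver X receptor partners and targets, 2 were higher and 1 lower (25% called, near the 20.7% of all genes): Srebf1, which encodes SREBP1 and is a classical target, fell to 107 ± 6.37 CPM in knockouts, against 182 ± 18.8 CPM in controls (-0.77, SE 0.09, adjusted p = 1.23e-05), and Mlxipl, encoding the carbohydrate sensor ChREBP, rose (0.49, SE 0.09). Of 11 lipogenic genes that SREBP1 is known to drive, 3 were higher and 4 lower (63.6% called against 20.7% of all genes). Elovl6, a fatty acid elongase, rose by 0.96 (SE 0.13) while Pnpla3, a lipid droplet hydrolase, fell by 0.95 (SE 0.19). Thrsp, a lipogenic regulator at 0.481 ± 0.499 CPM in knockouts and 2.89 ± 2.18 CPM in controls, was also lower (-2.58, SE 0.74, adjusted p = 0.0266 in edgeR). Its groups overlapped, with 0.348, 0.256, 0.105 and 1.21 CPM in knockouts and 5.26, 4.22, 0.831 and 1.26 CPM in controls. Thrsp was not followed under the alternative settings. Srebf2 was not called while Srebf1 fell; that these 2 changes differ was not tested.

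In lipoprotein uptake, 4 of 11 receptors and adaptors were higher and 2 lower (54.5% called against 20.7%). Lrpap1, the chaperone of the LDL receptor family, fell to 57.2 ± 9.02 CPM in knockouts, against 97.8 ± 5.66 CPM in controls (-0.77, SE 0.10), and Stab1, a scavenger receptor of sinusoidal endothelium, rose (0.50, SE 0.08), in livers whose endothelial markers were higher. Of 16 intracellular transport genes, 3 were higher and 1 lower (25% called, near 20.7%). Nceh1, a cholesteryl ester hydrolase known from macrophages, rose to 65.8 ± 6.88 CPM in knockouts, against 38.4 ± 4.09 CPM in controls (0.78, SE 0.10, adjusted p = 5.12e-05), and Osbpl8, an oxysterol-binding protein relative, fell by 0.37 (SE 0.09).

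Among 8 genes of high-density lipoprotein and its remodelling, 2 were higher and 3 lower (62.5% called against 20.7% of all genes). Hepatic lipase (Lipc) fell to 205 ± 20.8 CPM in knockouts, against 301 ± 23.3 CPM in controls (-0.55, SE 0.09), and endothelial lipase (Lipg) was at 0.323 ± 0.240 CPM in knockout livers and 2.20 ± 1.21 CPM in controls (-2.71, SE 0.59). The 2 higher genes were Pltp (0.53, SE 0.13) and Mttp (0.42, SE 0.11). Of 13 genes of sterol sensing and degradation in the endoplasmic reticulum, 1 was higher and 2 lower (23.1% called, near 20.7%), including the ubiquitin ligases Rnf145 (0.43, SE 0.11; call lost without knockout 276, 0.33) and Rnf139 (-0.47, SE 0.12). Of 13 genes of the isoprenoid branch, 1 was called (7.69%, below 20.7%). Rabggtb (0.37, SE 0.11), a subunit of the enzyme that prenylates Rab proteins, was higher, a call lost without control 280 (0.30) or 282 (0.33). Of 7 genes by which sterols enter oxysterols and bile acids, 5 were tested, 2 were higher and 2 lower (80% called against 20.7%). Cyp39a1 (1.73, SE 0.20) and Cyp8b1 (-1.63, SE 0.21) had the smallest p among these. The other higher gene was Cyp27a1 (0.60, SE 0.14, adjusted p = 0.00553 in edgeR). Cyp7a1, the rate-limiting enzyme of bile acid synthesis, fell to 8.93 ± 4.29 CPM in knockouts, against 27.6 ± 5.75 CPM in controls (-1.62, SE 0.40, adjusted p = 0.0271). Over the 8 lists, Lipg, Thrsp, Cyp39a1, Cyp8b1 and Cyp7a1 were the called genes past 2-fold.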

How the data were processed

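Whole livers of 4 Myo5b knockout and 4 control pups were sequenced, 1 library per animal. The deposited table holds raw read counts per Ensembl gene. Per the labels' protocols, the authors aligned reads with Rsubread 2.20.0 and BiocManager 1.30.26 in R 4.4.1 to a build written GRMm38, read here as GRCm38; per the submitters' processing notes they counted with featureCounts. Not given in the sources used here are the annotation, the strand setting and the handling of reads with several matches.

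Symbols, coordinates and merged exon lengths came from GENCODE M21 (GRCm38). Counts were tested with edgeR 4.0.16 (R 4.3.3, limma 3.58.1): filterByExpr (minimum count 10, minimum total 15), TMM scaling, its quasi-likelihood F-test in the robust form, Benjamini-Hochberg adjustment over 18274 genes, and no covariate. SE is the size of the log2 fold change divided by the square root of F; intervals are 2 SE on either side. Log2 CPM use a prior count of 2, and RPKM are CPM per kilobase of merged exons. Near copies were sought as shared words of 50 bases among transcripts. Tests were checked on simulated data. Libraries of a group differed by far more than counting noise (chi-square over its degrees of freedom between 12.9 and 24).

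The members and gene lists were chosen with earlier results of these data known. All 34 members and Myo5b are named, with the 2 called genes of smallest p in each of 8 pathway lists. Alb, Ttr, Ddx3y, Thrsp, Cyp7a1, Acat3, Ctsb, Akap9, Vps51, Nr1h2, Pltp, Mttp, Cyp27a1, Gm13502 and Gm43738 were added after their values were seen. Of 15 erythroid markers listed, 14 matched the table. Alternatives were other scalings, other filters, DESeq2 1.42.0, limma-voom, covariates, and each library left out. Figures were drawn with matplotlib 3.10.9.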

Additional observations from a re-analysis of the deposited data

Results flagged for a closer look

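Over the 34 genes and 7 summary measures, 82 groups of 4 livers were searched for a liver far from the other 3, and 4 were found; chance alone marks about 1 group in 20. Among knockouts, animal 278 had 115.3 CPM of Fdft1, above 100.5 to 102 CPM in the other 3, and 72.3 CPM of Nr1h3, above 57.8 to 60.1 CPM. Among controls, animal 282 had 58.3 CPM of Idi1, below 72.5 to 74.5 CPM in the other 3, and 41.4 CPM of Abcg5, below 52.2 to 53.1 CPM. Abcg5 without control 282 stayed lower in knockout livers.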

How the results depend on the processing

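All 17 called genes kept their calls and the other 17 stayed uncalled under median-ratio scaling, a filter of 1 CPM in 4 libraries, DESeq2 and limma-voom. With the erythroid covariate edgeR called 23 genes higher and 18 lower, and with the macrophage covariate 0 (803 at an unadjusted p under 0.05, without another tool run on it); under either, 0 of the 34 cholesterol genes were called in any role and direction. Log2 fold changes that turned sign with the macrophage covariate were Abca1 0.26, Dhcr7 0.30, Fdps 0.23, Hsd17b7 -0.45, Insig2 -0.53, Lipg 1.88, Lrpap1 0.22, Mlxipl -0.19, Mvd -1.14, Pmvk -0.39, Rabggtb -0.19, Rnf145 -0.56, Scarb1 1.71 and Soat2 0.70. With the erythroid covariate they were Cyp51 -0.10, Fdps 0.25, Hsd17b7 -0.16, Idi1 0.11, Msmo1 0.028, Pmvk -0.68, Rnf139 0.13, Rnf145 -0.10, Soat2 0.76 and Srebf2 -0.13. Fdps also turned under upper-quartile (0.0072) and library-size (0.051) scaling and without knockout 275 (0.071), control 279 (0.018) or control 280 (0.060). Idi1 turned with library size alone (0.031) and without knockout 275 (0.0016), Dhcr7 without control 280 (0.0019), and Scarb1 without control 279 (0.11). Higher enzymes numbered 4 with library size alone and 1 with the Y-linked covariate, against 2, and 1 regulator was lower with no low-count filter, against 0.

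With each library left out in turn, 7 to 10 of the 34 genes were higher and 6 to 10 lower, and 1223 to 1762 of all genes were higher and 1699 to 2167 lower. Higher enzymes numbered 1 to 4 (1 without knockout 276 or 277 or control 279, 281 or 282, and 4 without knockout 278) and lower enzymes 4 to 6. Lower efflux genes numbered 2 to 3, higher efflux genes 1 each time, and higher uptake, transport and storage genes 3 to 4. Lower regulators numbered 0 to 1 (1 without control 282) and lower uptake, transport and storage genes 0 to 1 (1 without knockout 278). The log2 fold changes of Fdps lay between -0.14 and 0.071, of Idi1 between -0.12 and 0.0016, of Dhcr7 between -0.16 and 0.0019, and of Scarb1 between -0.19 and 0.11. The efflux minus synthesis difference ran from -0.17 to -0.09, and the efflux minus uptake and storage difference, added after seeing the data, from -0.46 to -0.36. The cause of these shifts was not tested, and the erythroid and macrophage covariates cannot be told apart from genotype. No paired analysis was possible because the labels give no litter for any single pup.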
